A study of Caenorhabditis elegans with 8 samples.

Results

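CY262 is a Caenorhabditis elegans strain in which age-1, the gene for the catalytic subunit of phosphoinositide 3-kinase, was restricted to the intestine. It was studied on 3 of the 8 two-colour arrays of the series, those titled as intestinal age-1, each with Cy3-labelled RNA of CY262 in the green channel and Cy5-labelled RNA of wildtype N2 animals in the red channel. The genotype of CY262 is sqt-1(sc13) age-1(mg44); bvIs1, where bvIs1 is a single integrated transgene line whose promoter is not given in the sources used here. The other arrays held 2 samples of age-1(mg44) (zygotic null animals of heterozygous mothers, m+z-, for which the listed stock, SP75, carries both mutations over the balancer mnC1) and 3 samples of CY251, in which the same mutations were joined with bvIs2 to restrict age-1 to neurons. All 3 listed strains thus carry sqt-1(sc13) besides age-1(mg44), and wildtype N2 carries neither. Every sample was whole hermaphrodites, synchronised as L1 larvae by bleaching and hatching without food, then fed OP50 bacteria for 72 h at 20°C and collected as L4 larvae or young adults. The methods place the wildtype animals at a similar or slightly later stage, so stage and genotype cannot be told apart on these arrays.

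In the insulin/IGF-I-like pathway of the worm, insulin-like peptides act on the receptor DAF-2, which activates AGE-1. The lipid that AGE-1 makes recruits the kinases PDK-1, AKT-1 and AKT-2, and these hold the FOXO transcription factor DAF-16 out of the nucleus. When the pathway is weak, DAF-16 enters nuclei and turns on genes of stress resistance, detoxification, defence and metabolism. The intestine of the worm digests food, stores fat, makes yolk and expresses many of these genes.

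The records of the series do not agree on which arrays are CY262, and this matters for every comparison. Replicate 1 is the same array in all records. The series value table places the arrays labelled CY262 replicates 2 and 3 under CY251, and those labelled CY251 replicates 2 and 3 under CY262. The file names exchange only the replicate 2 arrays of CY262 and CY251. Results are given with arrays as labelled, and each call was repeated with both other assignments. A change is said below to hold when it passed the threshold with the same sign under all 3. Across genes, the log2 ratios of the 3 CY262 arrays correlated with each other at 0.74 to 0.84, and with single CY251 arrays at 0.68 to 0.94 (Pearson's r, as a description; genes are not independent replicates, and the arrays may share wildtype RNA).

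In each channel of the CY262 arrays, 87.8% to 92.8% of the 21482 spots stood well above background. CY262 replicate 2 was read from its image on a different day from all other arrays, so that day cannot be told apart from that sample. The dyes were not swapped, so a probe that takes up the dyes unequally shifts its ratio to wildtype in all strains alike, while differences between strains are free of that shift. Values below are log2 ratios of CY262 over wildtype, after background correction and loess normalization within each array. The p values come from a single limma fit to all 8 arrays, adjusted by Benjamini-Hochberg across every gene tested, and 0.05 was the threshold.

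The first comparison asked how the transcriptome of the intestine-restricted strain differed from wildtype. Of 18874 genes, 6119 (32.4%) passed the threshold, 3424 (18.1%) higher and 2695 (14.3%) lower in CY262. Large changes were nearly all rises. At least 4-fold higher were 557 genes and at least 4-fold lower were 29, while at least 8-fold higher were 193 and at least 8-fold lower were 2. The median of the genes that rose was 0.95, that of the genes that fell was -0.64, and the median of all genes was -0.01 with quartiles of -0.21 and 0.30. In samples of whole animals, fewer cells of a type and less RNA per cell cannot be told apart, which applies to every gene group below.

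Most calls did not depend on the assignment. Of the 6119 genes, 5345 (87.4%) held under all 3 assignments, 3151 higher and 2194 lower. Of those at least 4-fold changed, 553 of 557 rises and 29 of 29 falls held. Under the value table's assignment alone 6318 genes passed, 3794 higher and 2524 lower, 5349 of them shared with the labelled assignment and 0 with the opposite sign. The split of higher and lower genes moved with scaling: 41.6% of calls were higher with the ratios of the value table (their median over all genes was -0.15) and 80.8% with the methods' t-test after adjustment (median 0.44), against 56.0% here. Without CY262 replicate 2 the count was 3302 and without replicate 3 it was 3225.

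**Figure D1:**
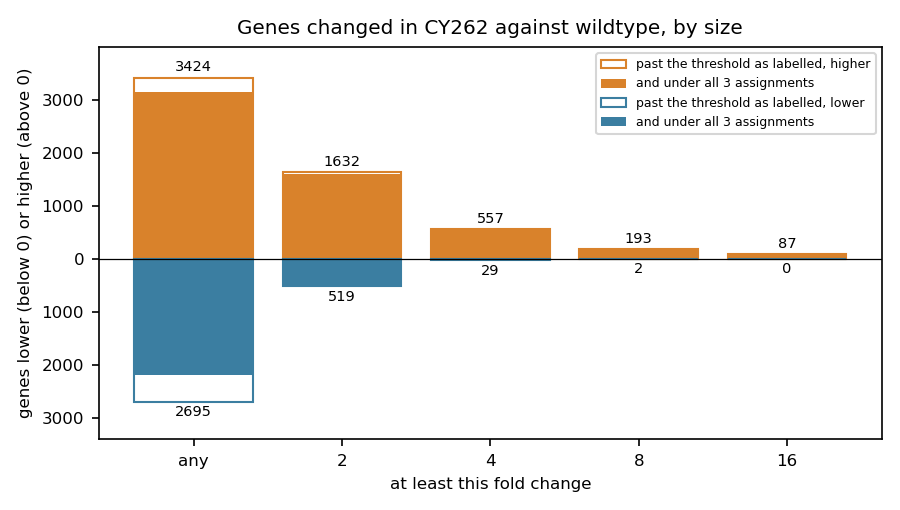
Number of genes past the threshold in CY262 against wildtype (y axis, genes higher above 0 and lower below 0) by the least fold change they reached (x axis). Open bars give the arrays as labelled and filled bars the genes that also passed under both other assignments. At 8-fold and above, 193 rises face 2 falls.

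The largest rises were in genes of sperm. Among genes saturated on no CY262 array, msd-1, a gene of the major sperm protein domain family, was highest, with log2 ratios of 6.82, 7.0 and 6.34 in replicates 1 to 3. Its fitted value was 6.72 ± 0.13 (SE, n = 3, adjusted p = 2.58e-06), or 105-fold. The sperm chromatin gene spch-1 had 6.84, 6.64 and 6.45 and a fitted value of 6.64 ± 0.12 (adjusted p = 2.02e-06). These arrays lay close together, and no CY262 array of either gene came near the wildtype level. The other 8 of the top 10 were Y59H11AM.1, msp-50, msp-38, nsph-3.2, msd-4, msp-40, nspd-5 and msp-32, with fitted values from 6.59 down to 6.18. All 10 held, as the rule for naming them required.

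All 26 genes of the major sperm protein list rose in CY262, against a background of 18.1% of all genes. Their median was 6.21, with a range from 4.79 to 7.30. The rise was not particular to CY262, as the median was 6.48 in age-1(mg44) and 6.60 in CY251. Major sperm protein is the cytoskeletal protein by which nematode sperm crawl, and it also signals to oocytes. The copies are nearly identical in sequence, so a probe may read several of them and single members are uncertain. The largest ratio was that of msp-31, with 7.32, 7.19 and 7.39, with 1 array saturated in the CY262 channel. The same 26 of 26 rose with the value table's arrays, where the median was 6.65. A further 7 genes outside the lists have array descriptions that name major sperm protein, and 4 of these were at least 8-fold higher.

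Of 54 other sperm genes, 41 rose and 0 fell (75.9% called, against 32.4% of all genes). Their median was 1.52, beside medians of 1.15 in age-1(mg44) and 2.17 in CY251. The phosphatase gsp-3, which sperm need for motility, had 4.18, 4.62 and 3.08, and its partner gsp-4 had 2.76, 3.16 and 1.04, with fitted values of 3.96 ± 0.26 and 2.32 ± 0.36 (SE, n = 3). Replicate 3 was the lowest of the 3 arrays for both. The membrane fusion gene fer-1, which acts in maturing sperm, was at -0.13 ± 0.06 and did not pass (adjusted p = 0.14). All 41 rises held, and the median on single arrays ran from 0.63 on replicate 3 to 2.11 on replicate 2. Outside the sperm lists, icmt-1, annotated as an isoprenylcysteine methyltransferase, rose to 6.15, 6.16 and 5.49.

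Most of the large rises were outside the named sperm genes. Of the 193 genes at least 8-fold higher, 26 were major sperm protein genes, 16 other sperm genes, 30 collagens and 9 members of other lists. The remaining 112 were in no list (those of daf-2 targets aside). Of these 112, 84 had no description on the array and 10 were described as kinases or phosphatases. Of all 18874 genes, 15507 were in no list by the same count. Among those, 11280 had no description and 523 were described as kinases or phosphatases.

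**Figure D2:**
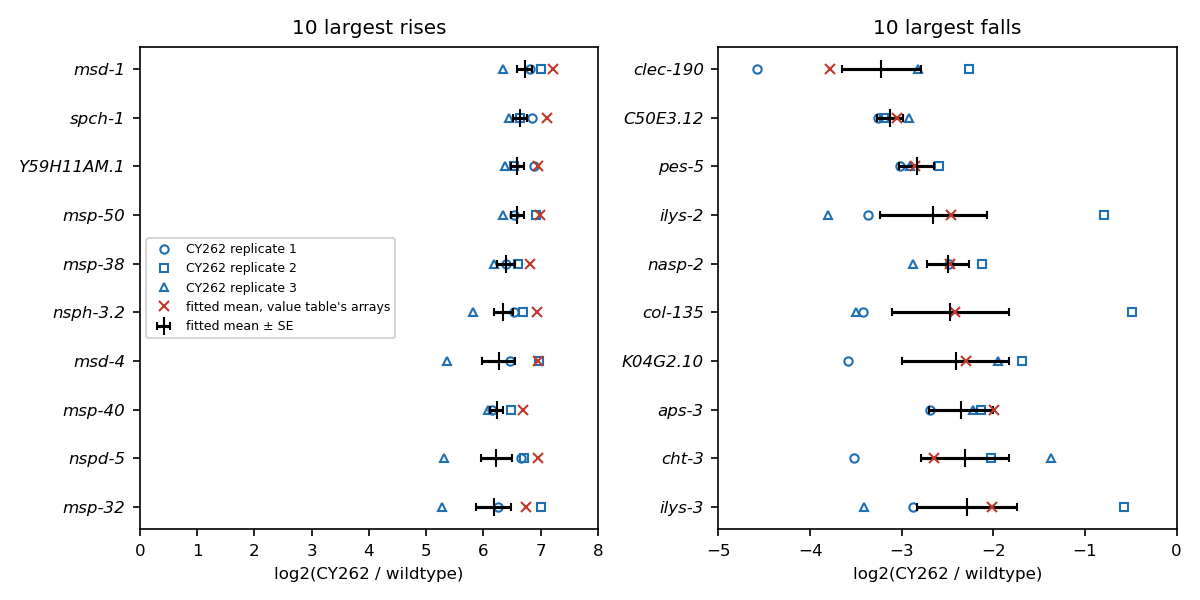
The 10 largest rises (left) and 10 largest falls (right) in CY262 among unsaturated genes that held under all assignments, as log2 of CY262 over wildtype (x axis). Open symbols are single arrays, black bars the fitted mean ± SE, and crosses the fitted mean with the value table's arrays. The fitted rises run from 6.18 to 6.72, while ilys-2, ilys-3 and col-135 have replicate 2 far from the other arrays.

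Genes of oocytes and early embryos moved the other way from sperm genes. Of 25 oocyte and eggshell genes, 0 rose and 17 fell, against 14.3% of all genes, with a median of -1.09. The median of the same genes was -1.31 in age-1(mg44) and -1.12 in CY251. The RNA-binding protein gene pos-1, which sets cell fates in the early embryo, had -1.67, -1.44 and -2.05 and a fitted value of -1.72 ± 0.14 (SE, n = 3, adjusted p = 0.00079). The yolk receptor gene rme-2 had -0.69, -2.25 and -2.63, the oocyte regulator puf-5 had -1.14, -1.84 and -2.35, and the eggshell proteoglycan gene cpg-1 had -0.98, -1.69 and -2.36. Replicate 1 was nearest to wildtype for these 3 genes. Their calls were lost without replicate 2 and without replicate 3 (adjusted p = 0.068 to 0.20), and that of rme-2 also with the value table's arrays (adjusted p = 0.053).

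Of 23 genes of the embryonic cell cycle, 0 rose and 20 fell (87% called, against 32.4% of all genes), with a median of -1.04, and all 20 held. The median of the same genes was -1.25 in age-1(mg44) and -0.99 in CY251. The subunits of ribonucleotide reductase, which makes the building blocks of DNA, were both lower. The large subunit gene rnr-1 had -1.42, -1.71 and -2.09, and the small subunit gene rnr-2 had -1.93, -1.39 and -2.13. Cyclin B gene cyb-1 was at -1.60 ± 0.15 and the replication clamp gene pcn-1 at -1.58 ± 0.14 (SE, n = 3). Every CY262 array of these 4 genes was below wildtype by over 1 on the log2 scale.

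Meiosis and germline genes gave a smaller shift. Of 28, 0 rose and 12 fell (42.9% called, against 32.4% of all genes), with a median of -0.66, and 10 of the 12 held. The meiotic break nuclease gene spo-11 had -1.75, -1.15 and -1.25, and mes-6, a Polycomb-type chromatin gene of the germline, had -1.08, -0.99 and -1.29. The germ granule helicase gene glh-2 had -0.71, -1.52 and -1.45, and the crossover gene msh-5 had -0.51, -1.45 and -1.52. The calls of glh-2 and msh-5 were lost without replicate 2 and without replicate 3, and that of spo-11 without any single CY262 array (adjusted p = 0.057 to 0.16). The value table's arrays left msh-5 at an adjusted p of 0.055. All 6 yolk protein genes were saturated in wildtype on every CY262 array, so their ratios are bounds, and 0 of 6 passed.

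The cuticle was the second large group of rises. Of 165 collagen genes, which build the cuticle and follow the molting cycle, 106 rose and 2 fell, with a median of 1.62. Of these genes 65.5% were called, against 32.4% of all genes, and their median was 1.16 in age-1(mg44) and 1.59 in CY251. With the value table's arrays 132 rose and 1 fell, and with the file names' 138 and 1, and 105 of the rises held. The largest were col-81, with 5.91, 5.65 and 6.09, col-85, with 5.80, 5.61 and 4.91, and col-93, with 5.61, 5.25 and 4.46. No CY262 array of these genes overlapped the wildtype level. The collagen col-162 varied more, with 6.46, 3.72 and 5.12. The adult collagen col-19, which the adult hypodermis expresses, was saturated in CY262 on all 3 arrays and was at least 9.24-fold higher than wildtype (adjusted p = 0.00021). Of the 106 rises, 3 were saturated in both channels on every CY262 array, so their calls carry neither a fold nor a direction.

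The larger of the 2 falls among collagens was that of col-135, at -3.42, -0.49 and -3.50, with a fitted value of -2.47 ± 0.64 (SE, n = 3, adjusted p = 0.028). Replicate 2 stood apart from the other arrays, and the call was lost without replicate 1 or 3 (adjusted p = 0.12 and 0.14). Of 59 hedgehog-related and ground-like genes, whose products are secreted largely by cuticle-forming cells, 12 rose and 4 fell (27.1% called, below the 32.4% of all genes), with a median of 0.19. The largest were grd-10 at 3.16 ± 0.32, grd-5 at 2.25 ± 0.18, grd-3 at 2.23 ± 0.12 and grd-13 at 1.83 ± 0.18 (SE, n = 3), and all 4 held. Hypodermis markers gave a mixed picture, with 1 of 7 higher and 2 lower.

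Of 12 markers of the intestine, 9 rose and 0 fell (75% called, against 32.4% of all genes), with a median of 1.40, and all 9 held. The median of the same markers was 1.35 in CY251 and 0.87 in age-1(mg44). The gut actin gene act-5, which forms the microvilli, had 1.87, 2.56 and 2.58, and the intestinal filament gene ifb-2 had 2.41, 1.89 and 2.28. The gut esterase gene ges-1 had 1.41, 2.45 and 1.83, and the sodium-proton exchanger gene nhx-2 had 1.42, 1.54 and 2.35. The GATA factor gene elt-2, which drives intestinal fate, was the smallest of those named at 0.62 ± 0.11 (SE, n = 3, adjusted p = 0.0085). All 3 arrays were above wildtype for each of these genes. Of the 9, 1 was saturated in both channels, so its call carries neither a fold nor a direction.

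The size of the intestinal shift depended on scaling, and the list's median ranged from 0.27 to 1.62 over 25 alternatives. Of 19 subunit genes of the vacuolar proton pump, 13 rose and 0 fell (68.4% called, against 32.4% of all genes). Their median of 0.97 turned to -0.22 relative to all genes with the methods' t-test. The intestinal subunit vha-6 had 0.73, 1.72 and 2.18, and vha-12 had 0.93, 1.59 and 1.91. Replicate 1 was the lowest array for both. The call of vha-6 was lost without replicate 2 or 3 (adjusted p = 0.12 and 0.15), as were those of vha-20, at 1.51 ± 0.29, and vha-10, at 1.31 ± 0.28 (SE, n = 3, adjusted p = 0.059 to 0.086).

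Body wall muscle markers were also higher, 5 of 7 with 0 lower (71.4% called, against 32.4% of all genes) and a median of 1.92, beside medians of 1.98 in CY251 and 0.72 in age-1(mg44). Troponin T gene mup-2 had 3.08, 1.75 and 2.54, tropomyosin gene lev-11 had 2.26, 1.90 and 2.32, and the myosin heavy chain gene myo-3 had 3.00, 1.28 and 2.06. All 3 held, and replicate 2 was the lowest array for each. The main body wall myosin gene unc-54 had 1.28, 0.85 and 1.54, and its call was lost without any single CY262 array (adjusted p = 0.055 to 0.11). With the methods' t-test unc-54 was at -0.054 relative to all genes. Of 3 pharynx markers, 0 passed.

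Of 17 neuron markers 5 were higher and 2 lower (41.2% called, against 32.4% of all genes), with a median of 0.24 that turned to -0.20 with median centring and -0.24 with the methods' t-test. GABA synthesis gene unc-25 was at 1.03 ± 0.13 and held, though it was at -0.050 relative to all genes with the methods' t-test. The touch neuron tubulin gene mec-7 was lower, at -0.71, -0.53 and -0.93, and its call was lost without replicate 1 or 3 (adjusted p = 0.054 and 0.081). Insulin-like peptide genes, ligands of the pathway, were higher in 4 of 24 cases and lower in 0 (16.7%, near the 18.1% of all genes that rose). Among them ins-37 had 3.42, 3.66 and 2.18 and a fitted value of 3.09 ± 0.27 (SE, n = 3, adjusted p = 0.00092).

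**Figure D3:**
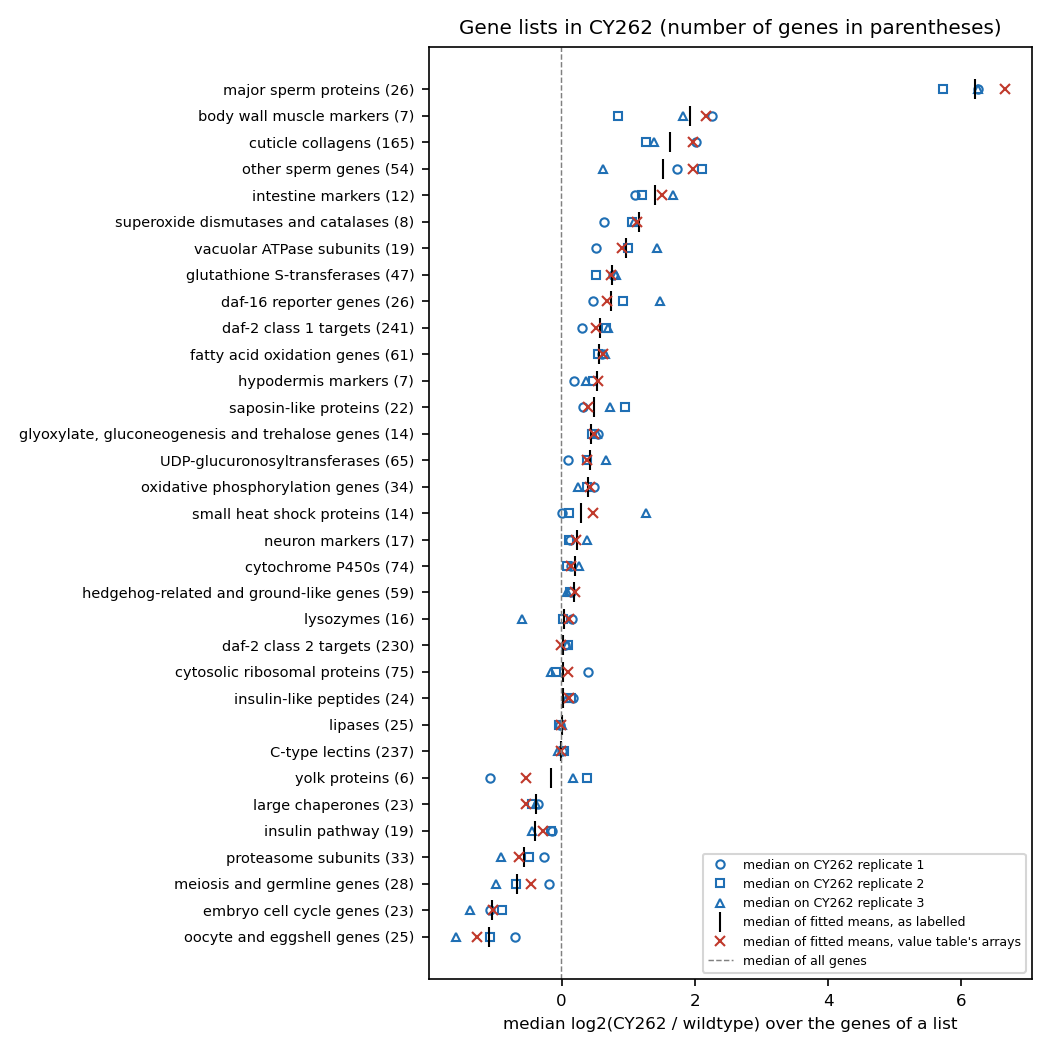
Median log2 ratio of CY262 over wildtype (x axis) for each described gene list (y axis, number of genes in parentheses). Open symbols are the medians on single CY262 arrays, black bars the median of the fitted means as labelled, crosses the same with the value table's arrays, and the dashed line the median of all genes. Major sperm proteins stand at 6.21 and oocyte genes at -1.09.

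Within the insulin pathway itself, 5 of 19 genes rose and 8 fell (68.4% called, against 32.4% of all genes). The probe for age-1, the gene mutated in all 3 strains, read -1.03, -1.66 and -1.71 in CY262, and its fitted value was -1.47 ± 0.21 (SE, n = 3, adjusted p = 0.0039). This call held, and it was lost with the methods' t-test (adjusted p = 0.22). The 10 spots of this 1 probe differed by less than the arrays, with SDs from 0.07 to 0.11 within an array. The strains' fitted values stood at -1.35 in age-1(mg44) and -1.45 in CY251, and CY262 differed from age-1(mg44) by -0.12 (unadjusted p = 0.72). Whether the probe reads RNA of the transgene or of the mutant allele is not known from the files.

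Further genes of the list passed the threshold. The nuclear partner of DAF-16, hcf-1, had -0.75, -0.91 and -1.26, with a fitted value of -0.97 ± 0.12 (SE, n = 3, adjusted p = 0.0025). Also lower were akt-1 at -0.60 ± 0.10, the sirtuin gene sir-2.1 at -0.59 ± 0.08 and the heat shock factor gene hsf-1 at -0.59 ± 0.12 (SE, n = 3). All 4 held, and hsf-1 was not called without replicate 3 (adjusted p = 0.070). In each of the 4 genes the 3 CY262 arrays were all below wildtype.

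The receptor and the transcription factor moved by less. The receptor gene daf-2 had 0.11, 0.49 and 0.34 (adjusted p = 0.042, and 0.088 with the value table's arrays). The FOXO gene daf-16 had 0.22, 0.53 and 0.47 (adjusted p = 0.021), but both turned negative with median centring, to -0.55 for daf-2 and -0.53 for daf-16, and with the methods' t-test. The 14-3-3 gene ftt-2, at 0.23, 1.1 and 1.08, also turned negative with both and did not pass with the value table's arrays (adjusted p = 0.13). Their calls and those of akt-2 and sgk-1 were lost without replicate 2 and without replicate 3 (adjusted p = 0.073 to 0.18).

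The strain's marker gene sqt-1, a cuticle collagen gene, had 4.40, 0.66 and 1.40 in CY262 and did not pass (2.15 ± 0.97, SE, n = 3, adjusted p = 0.13). It was at 0.88 and 0.60 on the age-1(mg44) arrays and at 0.32, 4.92 and 2.11 on the CY251 arrays. With the value table's arrays its fitted value in CY262 was 3.81 (adjusted p = 0.0027), since the array labelled CY251 replicate 2 then counts as CY262. This gene thus changed its call with the assignment.

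Among genes that report DAF-16 activity, the clearest rise was sod-3, the mitochondrial manganese superoxide dismutase. Replicates 2 and 3 read 4.55 and 4.39, and the spot of replicate 1 was left out as an outlier. The fitted value was 4.47 ± 0.32 (SE, n = 2, adjusted p = 0.00094), or 22.2-fold, and the call held under all assignments and all 25 alternatives. The arrays of age-1(mg44) read 3.99 and 4.98, so the 2 strains overlapped, and the difference between them was -0.02 ± 0.45 (SE, unadjusted p = 0.97).

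Of 26 such reporter genes, 10 rose and 1 fell in CY262 (42.3% called, against 32.4% of all genes), with a median of 0.75 that turned to -0.081 relative to all genes with the methods' t-test. The cadmium-responsive gene cdr-2 had 3.03, 2.23 and 2.33 (2.53 ± 0.25, adjusted p = 0.0021), and the catalase genes ctl-1 and ctl-2 were at 1.55 ± 0.22 and 1.73 ± 0.16 (SE, n = 3). The small heat shock gene hsp-17 had 2.08, 1.53 and 3.12 and passed (adjusted p = 0.022), as did the C-type lectin gene clec-13 at 0.58, 1.81 and 1.42 (adjusted p = 0.022). Both lost their call when single arrays were left out, hsp-17 without any 1 of the 3 (adjusted p = 0.051 to 0.11) and clec-13 without replicate 2 or 3 (adjusted p = 0.11 and 0.10). The desaturase gene fat-5 had 3.03, 2.53 and 2.74 (adjusted p = 0.043) and did not pass with the value table's arrays (adjusted p = 0.064) or without any single CY262 array (adjusted p = 0.12 to 0.14).

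Other reporters were above wildtype on all arrays without passing. The lysozyme gene lys-7 had 3.09, 1.98 and 1.81 (adjusted p = 0.056), and the cytochrome P450 gene cyp-35B1 had 2.16, 0.59 and 1.58 (adjusted p = 0.058). The acyl-CoA synthetase gene acs-2 stood at -0.04, 0.18 and 0.23, and the lysosomal lipase gene lipl-4 at -0.29, 0.54 and -0.23, so their arrays straddled the wildtype level. Both fitted values, 0.12 and 0.01, change sign with processing, acs-2 to -0.62 with median centring and lipl-4 to -0.29 with the file names' arrays.

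The hsp-16 genes, small heat shock proteins under the control of heat shock factor, varied more between replicates than between CY262 and wildtype. Arrays read -0.74, -0.50 and 1.54 for hsp-16.1, 0.01, -0.50 and 0.64 for hsp-16.2, and -1.85, 0.09 and 1.64 for hsp-16.48. None of these passed (adjusted p = 0.95 to 0.98), and replicate 3 was the highest array for each. For hsp-16.41 replicates 2 and 3 read 0.06 and 1.52, with replicate 1 left out as an outlier spot. Members of the family are similar in sequence, so single genes are uncertain.

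**Figure D4:**
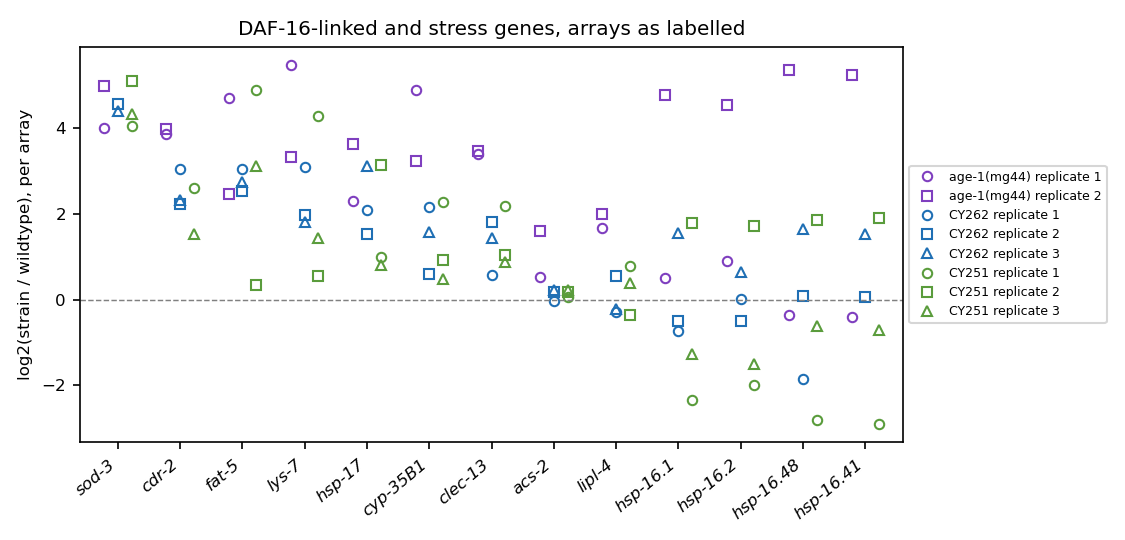
Log2 ratio of strain over wildtype (y axis) on each array as labelled for DAF-16-linked and stress genes named by the study (x axis). Colours mark the strains and shapes the replicates. CY262 reads 4.55 and 4.39 for sod-3, among the other strains, and lies below both age-1(mg44) arrays for lipl-4 and cyp-35B1, while the hsp-16 genes spread widely within every strain.

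Genes that were found as daf-2 targets in earlier work of others showed the same mix. Of 241 class 1 targets, which rise when daf-2 is reduced, 88 rose and 10 fell in CY262 (40.7% called), with a median of 0.58. Of 230 class 2 targets, which fall when daf-2 is reduced, 58 rose and 33 fell (39.6% called), with a median of 0.03. Of all genes 32.4% were called, 18.1% higher and 14.3% lower, so the share of class 2 targets that fell was near that of all genes. The class 2 median was -0.0027 with the value table's arrays, so it has no stable sign.

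Among detoxification genes the share past the threshold differed by family. Of 47 glutathione S-transferases, 31 rose and 2 fell, with a median of 0.75, and 28 of the rises held. The largest was gst-38, at 3.96, 2.11 and 3.83, followed by gst-20, at 1.31, 2.74 and 3.67, gst-39, at 2.07, 2.16 and 2.80, and gst-26, at 2.20, 2.25 and 2.57. All arrays of these 4 genes were above wildtype, though gst-20 lost its call without replicate 2 or 3 (adjusted p = 0.058 and 0.057). Of 65 UDP-glucuronosyltransferases, 20 rose and 5 fell (38.5% called, against 32.4% of all genes), with a median of 0.43 that turned to -0.0049 relative to all genes with the methods' t-test. The highest were ugt-44 at 2.54 ± 0.46, ugt-47 at 2.1 ± 0.28, ugt-41 at 1.83 ± 0.31 and ugt-13 at 1.80 ± 0.36 (SE, n = 3). Leaving out single arrays ended the call of ugt-44 (without replicate 2 or 3) and ugt-13 (without replicate 1 or 3), with adjusted p from 0.051 to 0.070.

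Of 74 cytochrome P450 genes, 21 rose and 4 fell (33.8% called, near the 32.4% of all genes), with a median of 0.20. The most reproducible of the larger rises was cyp-34A8, at 1.65, 1.48 and 1.93, which stayed past the threshold in all 25 alternatives. Larger on average but more variable was cyp-37B1, at 1.52, 0.82 and 3.39, whose call was lost without any single CY262 array (adjusted p = 0.058 to 0.20) and with the value table's arrays (adjusted p = 0.060). Of 8 superoxide dismutase and catalase genes, 7 rose and 0 fell, with a median of 1.16 that turned to -0.18 relative to all genes with the methods' t-test. The catalase genes lie side by side and resemble each other, and ctl-3 was at 1.61 ± 0.22 (SE, n = 3).

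Among chaperones most genes did not pass. Of 14 small heat shock genes, 4 rose and 0 fell (28.6% called), including hsp-12.3 at 2.12, 1.82 and 2.95 and hsp-25 at 0.99, 1.49 and 1.72. Of 23 large chaperones, 0 rose and 6 fell (26.1% called, against 18.1% of all genes higher and 14.3% lower), with a median of -0.39. The difference between the lists was not tested. The cytosolic chaperone gene hsp-1 read -1.35 and -1.30 on replicates 2 and 3, with replicate 1 left out, and hsp-90 read -0.67, -1.25 and -1.54, with wildtype saturated on 2 arrays. Both calls were lost without replicate 2 or 3 (adjusted p = 0.078 to 0.10). Proteasome subunits, which degrade proteins marked for removal, fell in 11 of 33 cases and rose in 1 (36.4% called, against 32.4% of all genes), with a median of -0.57. Among them pbs-7 had -0.93, -1.11 and -1.63 and pas-2 had -0.79, -1.10 and -1.49, all arrays below wildtype.

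Of 61 fatty acid oxidation genes, 26 rose and 1 fell (44.3% called, against 32.4% of all genes), and the others did not pass, with a median of 0.56 that was -0.012 relative to all genes with the methods' t-test. The acyl-CoA dehydrogenase genes acdh-8, at 3.72, 4.20 and 2.51, and acdh-5, at 3.09, 3.28 and 1.54, were among the largest rises and held. Between them by fitted value, acdh-1 had 2.93, 4.52 and 2.45, and lost its call without replicate 2 (adjusted p = 0.060). Of 14 genes of the glyoxylate cycle, gluconeogenesis and trehalose synthesis, 7 rose and 1 fell, with a median of 0.45 that turned to -0.072 with median centring and -0.37 with the methods' t-test. The gluconeogenic gene pck-1 had 2.57, 1.93 and 1.89, and the trehalose synthase gene tps-1 had 1.17, 0.46 and 1.32.

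Of 25 lipases 5 were higher and 2 lower (28% called, below the 32.4% of all genes). Higher were lips-17 at 3.10 ± 0.26, lipl-2 at 2.18 ± 0.25 and lipl-5 at 1.86 ± 0.14, and lower was lips-14 at -2.11 ± 0.48 (SE, n = 3), whose call was lost without any single CY262 array (adjusted p = 0.057 to 0.082). Of 34 genes of oxidative phosphorylation, 17 rose and 0 fell, with a median of 0.40 that turned to -0.32 with median centring and -0.66 with the methods' t-test. Cytosolic ribosomal protein genes moved in both directions, 17 of 75 higher and 3 lower (26.7% called, below the 32.4% of all genes) with a median of 0.02. Of these 75, 29 were saturated in wildtype on all CY262 arrays. Of the 17 rises, 4 were saturated in both channels, so their calls carry neither a fold nor a direction.

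The largest fall in CY262 was that of the C-type lectin gene clec-190, of a family linked to defence, which had -4.58, -2.26 and -2.82 and a fitted value of -3.22 ± 0.43 (SE, n = 3, adjusted p = 0.0051), or 9.33-fold lower than wildtype. The unnamed gene C50E3.12 was the most even, at -3.26, -3.19 and -2.92, and pes-5 had -3.02, -2.59 and -2.91. All 3 genes held, and no array of them reached the wildtype level. Lower by 4-fold or more were also nasp-2, described as a histone-binding protein, at -2.49 ± 0.23, aps-3, an adaptor complex subunit, at -2.35 ± 0.35, the chitinase gene cht-3 at -2.31 ± 0.48 and K04G2.10 at -2.41 ± 0.59 (SE, n = 3). The last lost its call without any single CY262 array (adjusted p = 0.057 to 0.096), and cht-3 without replicate 2 (adjusted p = 0.053). Of the 29 genes at least 4-fold lower, 23 were in no list, and 20 of those had no description on the array.

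Invertebrate-type lysozymes, which break bacterial cell walls, fell together on replicates 1 and 3. On the 3 arrays ilys-2 had -3.37, -0.80 and -3.80, ilys-3 had -2.88, -0.57 and -3.42, and ilys-6 had -2.35, -0.46 and -2.46. Replicate 2 was closest to wildtype each time, and these probes may read related genes. All 3 held, and all lost their call without replicate 1 or 3 (adjusted p = 0.074 to 0.12). A further one, ilys-5, was saturated in wildtype on all 3 arrays, which read -2.99, -1.26 and -4.25, and by the mean of the arrays was at least 7.13-fold lower (adjusted p = 0.014). Its log2 value was -2.76 without replicate 1 (adjusted p = 0.057) and -2.12 without replicate 3 (adjusted p = 0.065). Over all 16 lysozymes 2 rose and 5 fell (43.8% called, against 32.4% of all genes). Among those that rose was lys-8, at 0.95, 2.01 and 2.00.

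C-type lectins as a family had no common direction, with 42 of 237 higher and 21 lower (26.6% called, below the 32.4% of all genes) and a median of -0.01. The largest rises were clec-79, at 3.90, 4.03 and 1.45, clec-52, at 2.34, 3.19 and 3.34, and clec-85, at 2.66, 3.23 and 2.83. For clec-79 wildtype was well above background on 1 of 3 arrays. Saposin-like genes, whose products perforate membranes of ingested microbes, rose in 7 of 22 cases (31.8%, against 18.1% of all genes) with 0 falls and a median of 0.49. Among these spp-2 had 1.90, 2.43 and 2.46 and spp-18 had 1.45, 3.11 and 2.24.

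The second comparison asked where expression in CY262 differed from that of age-1(mg44) animals. In limma's test 5 of 18862 genes (0.0265%) passed the threshold, all lower in CY262: clec-18, clec-128, ZK355.3, R10D12.15 and scl-19. In each, CY262 was near the wildtype level and age-1(mg44) was above it. CY251 was near the wildtype level as well, so the pattern was not particular to CY262. The fitted values of CY251 were 0.08 for clec-18, 0.13 for clec-128, 0.25 for ZK355.3, 0.05 for R10D12.15 and -0.15 for scl-19. The C-type lectin gene clec-18 read -0.19, 0.14 and -0.21 in CY262 and 2.92 and 2.59 in age-1(mg44), a difference of -2.84 (adjusted p = 0.012). Wildtype was well above background for it on 0 of the 3 CY262 arrays, so this ratio sets signals near background against each other. The lectin gene clec-128 read -0.17, 0.07 and -0.21 against 1.88 and 2.19, a difference of -2.14 (adjusted p = 0.045).

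The other 3 genes showed the same arrangement. ZK355.3, with no description, read 0.02, 0.28 and 0.21 in CY262 and 1.79 and 1.88 in age-1(mg44). R10D12.15, described as a chitinase, read 0.03, 0.03 and -0.06 against 1.25 and 1.38. The secreted SCP-like gene scl-19 read -0.30, -0.09 and -0.35 against 1.12 and 1.0. In CY262 scl-19 was also called slightly below wildtype (-0.25, adjusted p = 0.034), but not with the value table's arrays (adjusted p = 0.070). The groups did not overlap for any of the 5, and differences were -1.67, -1.31 and -1.31 for these 3 (adjusted p = 0.045 each). With the value table's arrays 4 genes passed (29 with its replicate numbers as a block), among them clec-18, R10D12.15 and ZK355.3, while clec-128 (adjusted p = 0.060) and scl-19 (adjusted p = 0.053) did not. All 5 calls depended on processing. Over the 21 to 23 alternatives that changed the fit and gave an adjusted p, clec-18 passed in 8, R10D12.15 in 6, ZK355.3 and scl-19 in 5 each and clec-128 in 4. Without any 1 of the 8 arrays 0 or 1 gene passed.

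**Figure D5:**
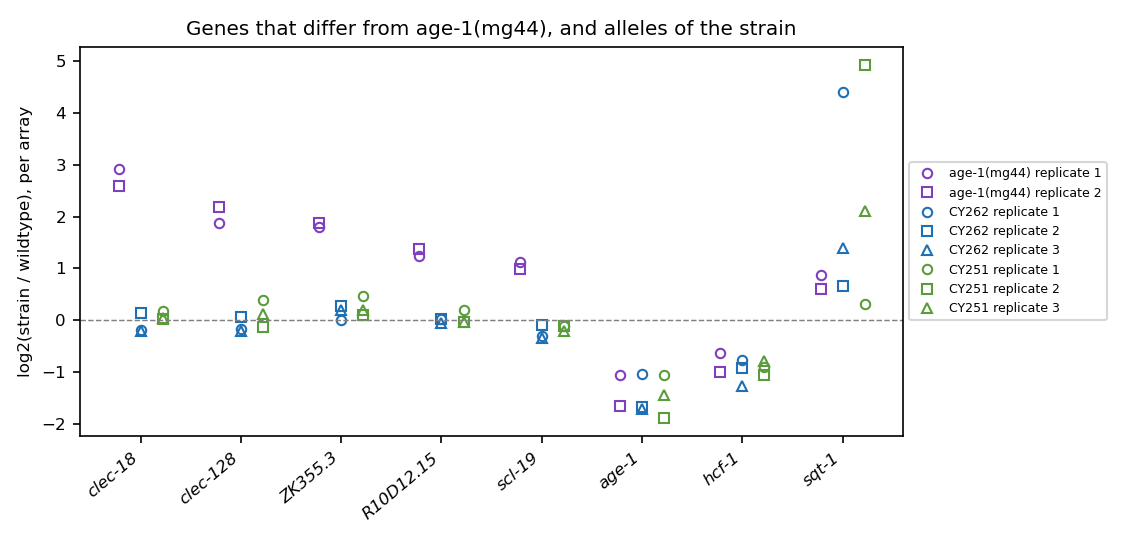
Log2 ratio of strain over wildtype (y axis) on each array as labelled for the 5 genes that differed between CY262 and age-1(mg44), and for age-1, hcf-1 and sqt-1 (x axis). Colours mark strains and shapes replicates. For the first 5 genes the CY262 arrays lie between -0.35 and 0.28 and the age-1(mg44) arrays between 1.0 and 2.92.

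At an unadjusted p under 0.05, 672 genes (3.56%) were lower and 605 (3.21%) higher in CY262 than in age-1(mg44). The lists differed in how they fell on these sides, which was not tested. Of the 47 glutathione S-transferases 11 were lower and 0 higher, of 74 cytochrome P450s 10 and 0, of 65 UDP-glucuronosyltransferases 5 and 0, of 26 DAF-16 reporters 6 and 0, and of 241 class 1 targets 30 and 13. Of 237 C-type lectins 9 were lower and 2 higher, of 16 lysozymes 1 and 0, and of 8 superoxide dismutases and catalases 0 and 0. Lower counts were not confined to these groups. Of 338 F-box proteins 24 were lower and 1 higher, of 268 nuclear hormone receptors 16 and 5, and of 22 saposin-like genes 5 and 0. On the higher side were 7 of 34 oxidative phosphorylation genes and 5 of 23 large chaperones, with 0 and 1 lower. Also higher were 4 of 19 insulin pathway genes and 12 of 230 class 2 targets, with 0 and 4 lower.

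Apart from clec-18 and clec-128, the genes of these groups did not pass after adjustment with the arrays as labelled. The P450 gene cyp-35B1 read 4.88 and 3.22 in age-1(mg44), above all 3 CY262 arrays, with a difference of -2.61 ± 0.75 (SE, unadjusted p = 0.011, adjusted p = 0.61). Differences were -2.15 ± 0.48 for clec-13, -1.82 ± 0.39 for lipl-4, -1.76 ± 0.31 for spp-2 and -1.39 ± 0.39 for cdr-2 (SE, adjusted p from 0.41 to 0.63), with no overlap between the groups. With the file names' arrays lipl-4 passed (-2.12, adjusted p = 0.0094). For cdr-2 and spp-2 CY262 was between age-1(mg44) and wildtype, with all CY262 arrays above wildtype. In the other direction, icmt-1 was higher in CY262 than in age-1(mg44) by 2.1 ± 0.32 (SE, adjusted p = 0.32). The 2 age-1(mg44) arrays differed widely for hsp-16 genes, so hsp-16.1 differed from CY262 by -2.53 with an unadjusted p of 0.17.

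The third comparison set CY262 against CY251, the strain with age-1 in neurons. In limma's test 0 of 18870 genes (0%) passed, the smallest adjusted p was 0.99996 and 148 genes (0.784%) were under 0.05 before adjustment. Under the value table's assignment 0 passed and 268 were under 0.05 before adjustment, and with the file names' 28 passed and 1961 were under it. A p that misses the threshold does not show that the strains were alike. The records disagree on 4 of the 6 arrays of this comparison, and 4 of them change strain with the value table.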

How the data were processed

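Total RNA of whole animals was compared on 8 two-colour Agilent arrays (2 age-1(mg44), 3 CY262, 3 CY251), each against wildtype N2. Per the file headers, the authors read the spot intensity values with Agilent Feature Extraction A.7.5.1. The deposited intensity values are raw mean and local background signals and processed signals, from which the software had removed background and dye bias. Deposited log10 ratios are processed red (wildtype) over processed green (strain). The series value table repeats them for part of the spots. Its columns matched the LogRatio of arrays to within 1e-05, which gave the assignment used as an alternative. Its log10 scale and direction are thus known, and no gene was centred.

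Here, raw signals were corrected by normexp with an offset of 50 and normalized by loess within arrays (limma 3.58.1, R 4.3.3). Outlier spots were left out, and a mean raw wildtype signal above 100 was required, as in the methods. The brightest of a gene's probes was kept, giving 18874 genes from 20401 probes, of which 823 had several probes. Names were updated through RefSeq for 18121, and 567 probes without a name were not used. One limma model (lmFit, eBayes) with a mean per strain was fitted to all 8 arrays, and tests were two-sided. The article calls the samples biological replicates and lists 3 of N2, so arrays may share wildtype RNA, and p values measure only the spread between these samples.

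Genes were named by rule: the 10 largest unsaturated rises and falls that held under all assignments, up to 4 called genes with the largest change per described list with textbook members, all genes past the threshold between strains, the alleles of the strain and genes the article names. The genes icmt-1, msp-31, spp-2, lys-8 and clec-52 were named after their values were seen. Saturated probes are given as bounds, from normalized log2 means of each channel. The members and lists were chosen with earlier results of these data known, and the daf-2 target lists come from the names in a supplementary table of the article. The model was tested on simulated data. Alternatives changed background correction, normalization, filters, probes, variance model, test, arrays and assignment. The array's genome build is not given in the sources used here, so no coordinates are given. One gene is not reported here.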

Additional observations from a re-analysis of the deposited data

Results flagged for a closer look

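Differences between CY262 and age-1(mg44) that passed limma's adjusted threshold drew attention in 5 genes, out of 18862 tested, where the effect against wildtype differed between the strains by the test of the difference itself. Log2 differences of CY262 minus age-1(mg44) were -2.84 for clec-18, -2.14 for clec-128, -1.67 for ZK355.3, -1.31 for R10D12.15 and -1.31 for scl-19. Of these, clec-18 and clec-128 are C-type lectin genes. In all 5, each CY262 array was below both age-1(mg44) arrays. Their highest adjusted p over the alternatives was 0.75, and the lowest ran from 0.0017 for clec-18 to 0.012 for scl-19. Groups of 2 and 3 arrays were too small for a search for outlying arrays.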

How the results depend on the processing

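Of 151 genes followed over 25 alternatives, 137 were called and 121 of those kept their direction throughout. Against wildtype, the main count of 6119 became 11815 with median centring, 3097 with the CY262 arrays alone, 9434 with the value table's arrays and replicate number as a block, and 11772 with the methods' t-test adjusted (12761 unadjusted). Leaving out 1 array gave 3225 to 5935. Against age-1(mg44), the main count of 5 became 0 without background subtraction, with processed signals with or without loess, with median centring, with probes above background only and with the adjusted t-test (905 unadjusted). It became 2 with trend and robust eBayes, 2 with the value table's ratios, 29 with its arrays and the block, 12 with the file names' arrays, and 0 to 1 without 1 array. Against CY251, the main count of 0 became 28 with the file names' arrays and 216 with the unadjusted t-test, and stayed at 0 without any 1 array. Replicate numbers were not taken to pair the samples in the main fit, because the methods use no such block. As labelled, deviations of same-numbered CY262 and CY251 arrays correlated at 0.61, -0.16 and 0.23 (0.75 and 0.45 with age-1(mg44)). These correlations ran from 0.46 to 0.83 with arrays placed as in the value table and from 0.38 to 0.85 as in the file names. As labelled, the replicate block gave 9021 calls against wildtype, 0 against age-1(mg44) and 0 against CY251.

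Directions turned as follows for genes called in either fit and for lists whose median exceeded the SD between arrays, with values under the 2 scalings that moved all genes given relative to their median. The daf-2 class 2 median became -0.0073 without background subtraction, -0.0027 with the value table's arrays, with or without the block, and -0.061 with the t-test. With median centring values were acs-2 -0.62, ftt-2 -0.067, clec-18 0.52, daf-16 -0.53, daf-2 -0.55, rab-3 -0.35, akt-2 -0.24, and medians were -0.20 (neurons), -0.17 (hypodermis), -0.072 (glyoxylate and related) and -0.32 (oxidative phosphorylation). With the file names' arrays lipl-4 was -0.29. With the t-test values were cyc-1 -0.12, unc-54 -0.054, tps-2 -0.079, acs-2 -0.68, ftt-2 -0.37, clec-18 0.25, gas-1 -0.082, daf-16 -0.81, sbt-1 -0.24, cox-4 -0.090, clec-128 0.059, unc-25 -0.050, daf-2 -0.71, scl-19 0.062, rab-3 -0.52, akt-2 -0.41, pept-1 -0.082, gst-4 -0.22 and sgk-1 -0.041. Medians with the t-test were -0.081 (DAF-16 reporters), -0.24 (neurons), -0.37 (hypodermis), -0.0049 (UDP-glucuronosyltransferases), -0.18 (superoxide dismutases and catalases), -0.012 (fatty acid oxidation), -0.37 (glyoxylate and related), -0.22 (vacuolar ATPase) and -0.66 (oxidative phosphorylation). Medians nearer 0 had no stable sign and ranged from -0.67 to 0.31 (ribosomal proteins), -0.67 to 0.27 (yolk), -0.53 to 0.33 (pharynx), -0.17 to 0.39 (lysozymes) and -0.11 to 0.35 (C-type lectins), as did the uncalled hsp-16 genes and R10D12.15. The cause was not tested. Of the called genes, 7 lost their call with the value table's arrays and 20, 34 and 43 without CY262 replicates 1, 2 and 3.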

Other observations

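Further gene families were also compared between CY262 and wildtype. Over the 17 lists whose change against wildtype is not described above, the share of genes past the threshold ran from 5.56% to 37.5%. Their medians ran from -0.24 to 0.71. In 869 genes neither channel was well above background on the CY262 arrays, and 19 of them were called. A set of 13 genes saturated in both channels on all CY262 arrays shared log2 ratios of 0.615 to 0.618. All 13 were called higher, and these calls carry neither a fold nor a direction.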
